A study of Mus musculus with 12 samples.

Results

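The 10 genes described here were Trp53 and its ligase Mdm2, the cell cycle inhibitor Cdkn1a, the GADD45 family (Gadd45a, Gadd45b and Gadd45g), the antiproliferative genes Btg1 and Btg2, and the polo-like kinases Plk2 and Plk3. They were taken by symbol from the deposited gene tables, and all 10 passed the filter on low values that left 15240 tested genes of 52858 gene rows. RNA was sequenced from hearts of male mice aged 3 to 5 months, perfused ex vivo with buffer by the Langendorff method before total RNA was extracted. C57BL/6J and Slit2-Tg hearts were either perfused for 80 min without interruption (the C57-non-IR and the Slit2-non-IR group) or kept for 20 min without any flow, that is global ischemia, and then reperfused for 40 min (C57-IR and Slit2-IR), with 3 libraries in each of the 4 groups. Slit2-Tg mice are heterozygous for a full-length human Slit2 cDNA under the CMV promoter, which is not specific to the heart. The line was made in C57 × CBA F1 oocytes, and C57BL/6J is given as its background strain. The sources used here mention no backcrossing, so remaining strain differences cannot be told apart from the transgene. The expression of this transgene was not analysed here. All 4 groups share the perfusion itself, so every library comes from a heart that had been removed and perfused, and no heart was left unperfused. The labels call the samples of a group independent. The IR or non-IR status of a library came from the letters in its sample title, read with the design text.

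p53, the product of Trp53, is a transcription factor that is kept low by the ubiquitin ligase MDM2 and is controlled mostly at the level of the protein, which RNA does not show. Its best known target encodes the cyclin-dependent kinase inhibitor p21 (Cdkn1a). The GADD45 proteins are small stress sensors that bind PCNA, p21 and the kinase MAP3K4 upstream of p38 and JNK. BTG1 and BTG2 restrain proliferation and bring the CCR4-NOT deadenylase to mRNAs, and PLK2 and PLK3 are stress-inducible kinases of a family otherwise known for mitosis. Several of these genes are also induced without p53, through p38, NFκB or CREB, and the heart muscle cell that makes up most cardiac mass rarely divides.

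The sequences just upstream of these genes are shown because p53 and stress-responsive factors act there. All 10 genes matched a RefSeq promoter on GRCm38.p6. The windows run 5′ to 3′ on the gene's own strand and end before the deposited gene span. They lie at chr17:29090729-29090978 (plus strand) for Cdkn1a, chr10:80929841-80930072 (plus) for Gadd45b, chr13:51846425-51846674 (plus) for Gadd45g, chr1:134079156-134079405 (minus) for Btg2, chr13:110394794-110395043 (plus) for Plk2 and chr4:117133964-117134213 (minus) for Plk3. Capitals mark the 2 half-sites of the p53 response element in Cdkn1a, the E-box CACGTG and the TATA box TATAAA in Gadd45b and Gadd45g, and the CRE-like motif TGACGTNA in Btg2, Plk2 and Plk3.
Cdkn1a: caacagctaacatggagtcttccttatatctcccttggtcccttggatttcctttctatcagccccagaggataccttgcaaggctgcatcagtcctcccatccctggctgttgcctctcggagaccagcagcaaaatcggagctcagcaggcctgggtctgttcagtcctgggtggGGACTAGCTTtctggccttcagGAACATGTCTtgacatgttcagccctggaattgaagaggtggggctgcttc
Gadd45b: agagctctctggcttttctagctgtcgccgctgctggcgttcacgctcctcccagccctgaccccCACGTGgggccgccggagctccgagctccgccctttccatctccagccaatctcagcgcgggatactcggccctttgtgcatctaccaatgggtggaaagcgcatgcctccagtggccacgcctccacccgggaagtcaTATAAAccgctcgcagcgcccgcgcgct
Gadd45g: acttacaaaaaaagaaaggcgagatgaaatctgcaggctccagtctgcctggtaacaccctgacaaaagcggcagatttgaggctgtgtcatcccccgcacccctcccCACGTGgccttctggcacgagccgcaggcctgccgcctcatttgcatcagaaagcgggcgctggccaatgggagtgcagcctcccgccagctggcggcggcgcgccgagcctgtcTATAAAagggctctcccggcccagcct
Btg2: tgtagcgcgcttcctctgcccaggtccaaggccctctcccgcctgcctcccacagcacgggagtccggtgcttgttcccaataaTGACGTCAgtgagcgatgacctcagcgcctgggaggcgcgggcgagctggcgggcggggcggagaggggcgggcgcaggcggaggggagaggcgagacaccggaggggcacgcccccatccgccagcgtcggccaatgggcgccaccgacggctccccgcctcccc
Plk2: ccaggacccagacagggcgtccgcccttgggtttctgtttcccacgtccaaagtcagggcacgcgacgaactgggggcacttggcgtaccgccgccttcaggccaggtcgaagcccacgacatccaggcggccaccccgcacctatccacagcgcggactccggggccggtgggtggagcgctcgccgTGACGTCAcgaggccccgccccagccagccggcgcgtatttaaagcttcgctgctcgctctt
Plk3: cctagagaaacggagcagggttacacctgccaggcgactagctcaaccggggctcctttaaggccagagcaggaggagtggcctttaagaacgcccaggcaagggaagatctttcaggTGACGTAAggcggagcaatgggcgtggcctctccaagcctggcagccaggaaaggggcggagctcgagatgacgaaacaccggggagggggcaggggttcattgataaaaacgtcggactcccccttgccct

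In the 250 bases before the start, read on both strands, the p53 response element (2 half-sites up to 13 bases apart, every base matching) was found for Cdkn1a, 73 bases before its upstream start, and for none of the other 9 genes, against 0.0639% of 32851 promoters. A second Cdkn1a window, at chr17:29093519-29093768 inside the gene span, held none of the motifs. Sites outside the windows, such as those within genes, were not searched. The CRE-like motif TGACGTNA stood in Btg1, Btg2, Plk2 and Plk3 (2.52% of promoters), 190, 166, 62 and 132 bases before the start. CACGTG stood in Gadd45b and Gadd45g (6.02%), and TATAAA lay close to the start in Gadd45b, Gadd45g and Btg1 and at the far end of the Trp53 window (12.4%). The AP-1 motif TGANTCA (6.75%) and the heat shock motif GAANNTTC (6.69%) were in none of the 10. CACGTG and TGACGTNA share the core ACGT, and no gene of the 10 held both. These motifs were chosen after the sequences had been seen and describe letters only.

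**Figure D1:**
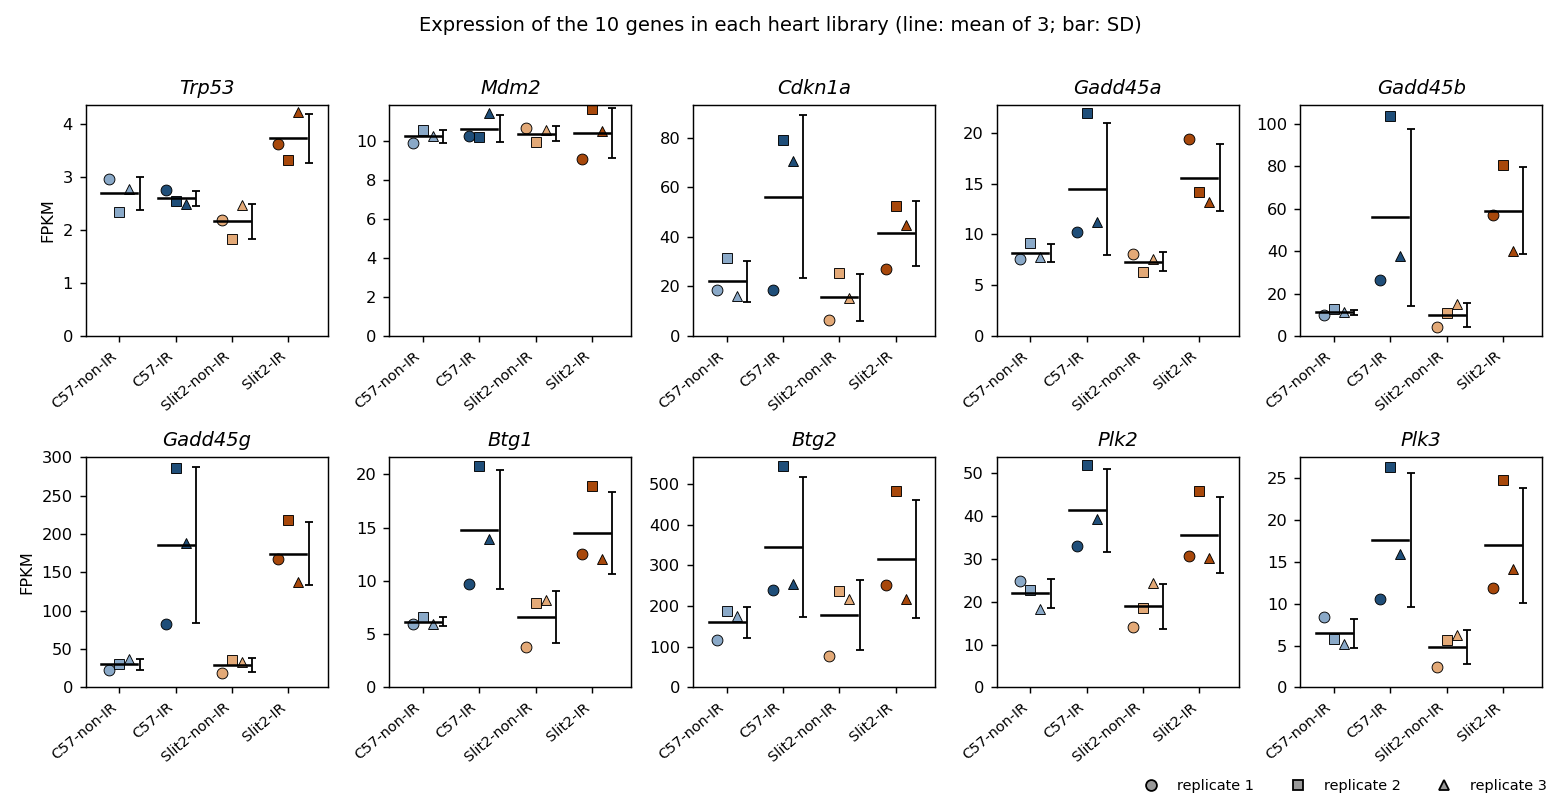
Expression of the 10 genes in FPKM (linear axes from 0), with 1 point per library, the mean of 3 libraries as a line and the SD as a bar. For Gadd45a, Gadd45b, Gadd45g, Btg1, Plk2 and Plk3 all 6 IR libraries lay above all 6 non-IR libraries, whereas Mdm2 stayed between 9.05 and 11.6 FPKM in all 12.

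Expression is given as FPKM, fragments scaled to gene length and to library size, so that levels can be compared between genes, and differences are log2 fold changes of FPKM + 1 with the SE of a limma fit. Over both genotypes, 6 of the 10 genes were higher after IR at an adjusted p under 0.05, namely all 3 GADD45 genes, Btg1, Plk2 and Plk3, where 2.34% of tested genes were higher by that test. At an unadjusted p under 0.05, 9 of 10 were higher, against 7.93% of tested genes. The median of the 10 was 1.01 on the log2 scale, against 0.0036 over all tested genes. The same 6 genes had all 6 IR libraries above all 6 non-IR libraries, against 2.23% of tested genes. Tested within 1 genotype, 1 gene passed the adjusted threshold in C57BL/6J hearts (Gadd45g, against 0.407% of tested genes) and 2 in Slit2-Tg hearts (Gadd45g and Trp53, against 0.446%). The unadjusted threshold was passed by 7 genes in C57BL/6J hearts, against 4.55% of tested genes, and by 8 in Slit2-Tg hearts, against 6.15%. The 3 IR libraries lay above the 3 non-IR libraries for 7 genes in C57BL/6J hearts (6.75% of tested genes) and for 8 in Slit2-Tg hearts (8.65%).

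With the replicate number as a block over all 12 libraries, 5 genes passed for IR in Slit2-Tg hearts, where 1.07% of tested genes were higher by that test. They were Trp53, Gadd45b, Gadd45g, Btg1 and Plk3, with adjusted p-values of 0.0217, 0.0205, 0.00819, 0.0397 and 0.0460. No label pairs the libraries, and the block was used because same-numbered libraries deviated together from their group means. That correlation was as low as 0.0377, for replicate 2 of Slit2-non-IR with C57-non-IR hearts. The added calls thus depend on a pairing that is not established. Other values are without the block unless stated.

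**Figure D2:**
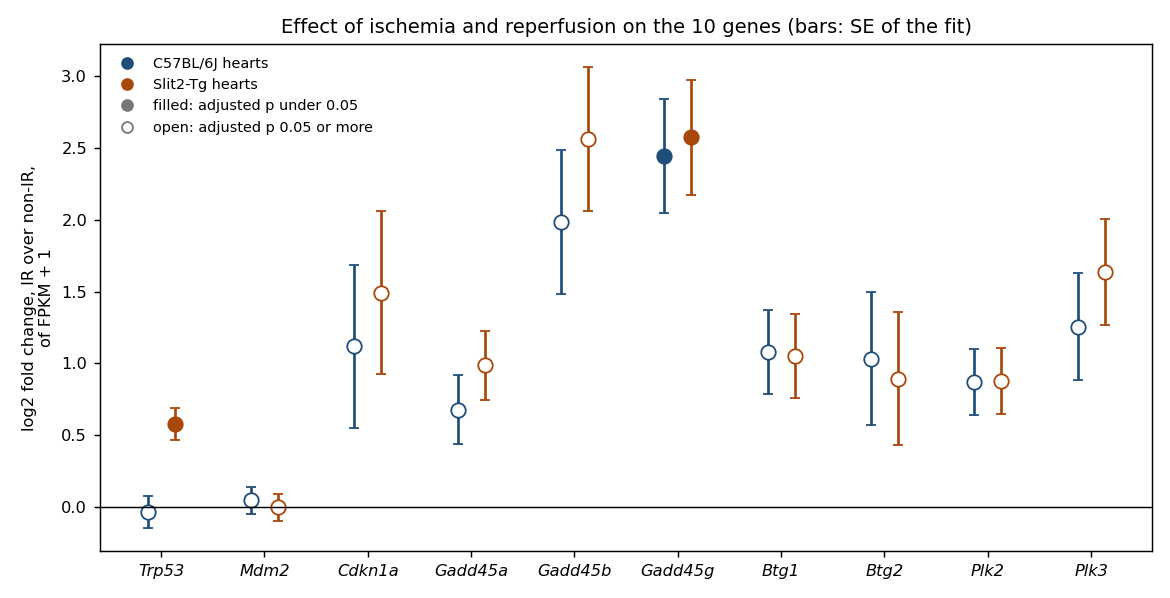
Log2 fold change of FPKM + 1 (IR over non-IR) for each gene in C57BL/6J and in Slit2-Tg hearts, with the SE of the limma fit as bars and filled points for an adjusted p under 0.05. The largest changes were those of Gadd45g, 2.44 and 2.57, and the values of Mdm2 lay at 0 within their SE.

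Gadd45g and Gadd45b had the largest IR effects of the 10 genes. Gadd45g, on chromosome 13 from 51846678 to 51848468, was at 22.3, 31.2 and 36.9 FPKM in the C57-non-IR libraries and at 83.3, 286 and 188 in the C57-IR libraries. In Slit2-Tg hearts it was at 18.5, 35.7 and 32.7 without ischemia and at 167, 218 and 137 after IR. The groups did not overlap in either genotype. IR raised Gadd45g by 2.44 ± 0.40 (SE, n = 3 against 3) on the log2 scale in C57BL/6J hearts (adjusted p = 0.0390) and by 2.57 ± 0.40 in Slit2-Tg hearts (adjusted p = 0.0255), and by 2.51 ± 0.28 over both (adjusted p = 0.00151). The call within 1 genotype was lost in C57BL/6J hearts without any 1 of 8 libraries (all 3 C57-non-IR, C57-IR replicates 2 and 3, Slit2-non-IR replicates 2 and 3, and Slit2-IR replicate 1), with adjusted p-values up to 0.162, and in Slit2-Tg hearts without any 1 of 7 (C57-non-IR replicates 2 and 3, all 3 Slit2-non-IR, and Slit2-IR replicates 1 and 2), up to 0.116. Over both genotypes it held in all 18 alternatives.

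Gadd45b (chromosome 10, 80930073 to 80932204) was the second gene of the family to rise several-fold. It was at 9.98, 12.5 and 11.1 FPKM in C57-non-IR hearts and at 26.2, 104 and 37.8 in C57-IR hearts, and at 4.004, 10.7 and 15.1 in Slit2-non-IR and 56.9, 80.8 and 39.9 in Slit2-IR hearts. Every IR library was above every non-IR library, and C57-IR replicate 2 was the highest of the 12. The mean effect of IR was 2.27 ± 0.35 (adjusted p = 0.00571), a call held in all 18 alternatives. Within a genotype the differences were 1.98 ± 0.50 in C57BL/6J hearts (adjusted p = 0.135, and 0.054 with the replicate block) and 2.56 ± 0.50 in Slit2-Tg hearts (adjusted p = 0.0539, and 0.0205 with the replicate block).

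Gadd45a (chromosome 6, 67035096 to 67037457, minus strand), a classical p53 target, had the smallest difference of the family. Its levels were 7.59, 9.17 and 7.79 FPKM in C57-non-IR, 10.3, 21.9 and 11.2 in C57-IR, 8.09, 6.27 and 7.57 in Slit2-non-IR and 19.4, 14.2 and 13.2 in Slit2-IR hearts. The lowest IR library, at 10.3, was just above the highest non-IR library, at 9.17. Over both genotypes Gadd45a was higher by 0.83 ± 0.17 (adjusted p = 0.0217). This call was lost without replicate 1 or replicate 3 of C57-non-IR, replicate 2 of Slit2-non-IR or replicate 1 of Slit2-IR (adjusted p = 0.0564, 0.0575, 0.0605 and 0.0539), and with no filter beyond 1 read (adjusted p = 0.0616). Gadd45a overlaps E230016M11Rik on the other strand, and since the use of strand is not given in the sources used here, reads of both cannot be told apart.

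Summed over the 3 genes, GADD45 expression was 49.5 ± 8.51 FPKM (SD, n = 3) in C57-non-IR and 256 ± 147 in C57-IR hearts, and 46.2 ± 13.6 in Slit2-non-IR and 249 ± 61.5 in Slit2-IR hearts. Gadd45g made up the larger part in every library. Its share was 60.4% ± 5.26 and 62.4% ± 4.71 in the C57-non-IR and Slit2-non-IR hearts, and 72.8% ± 5.68 and 70.1% ± 1.79 after IR. The share of Gadd45a was 16.8% ± 2.59 and 17.3% ± 7.91 without ischemia, and 6.21% ± 2.07 and 6.49% ± 1.77 after IR. Its lowest share without ischemia, 11.9%, was above its highest share after IR, 8.57%, while its own level was higher after IR. The share of Gadd45b was between 20.2% and 23.4% on average in all 4 groups.

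**Figure D3:**
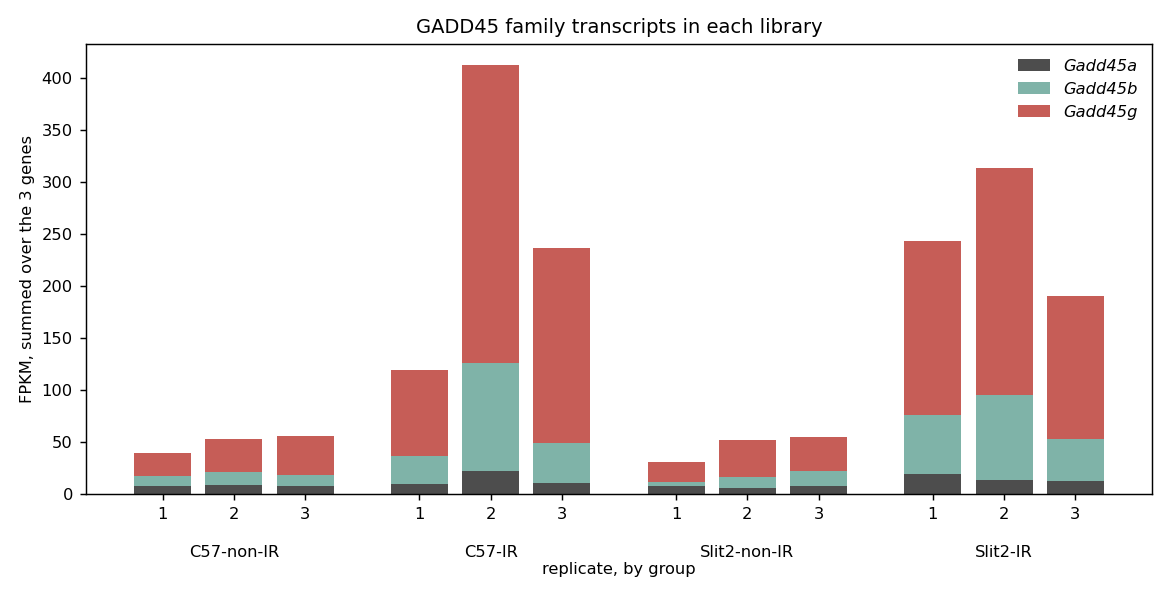
FPKM of Gadd45a, Gadd45b and Gadd45g stacked for each of the 12 libraries, by group and replicate. The sums lay between 30.6 and 55.8 FPKM without ischemia and between 119.8 and 412 after IR, and Gadd45g was the largest part of each bar.

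Trp53 and Mdm2, the pair at the head of the pathway, did not pass the test over both genotypes, and Trp53 passed in Slit2-Tg hearts alone. Trp53 (chromosome 11, 69580359 to 69591873) was at 2.96, 2.35 and 2.77 FPKM in C57-non-IR and at 2.76, 2.56 and 2.49 in C57-IR hearts, where the groups overlapped. In Slit2-Tg hearts it was at 2.19, 1.82 and 2.48 without ischemia and at 3.63, 3.33 and 4.24 after IR, with no overlap, and these 3 libraries held the highest Trp53 levels of all 12. The effect of IR was -0.03 ± 0.11 in C57BL/6J hearts (adjusted p = 0.994) and 0.58 ± 0.11 in Slit2-Tg hearts (adjusted p = 0.0499). The latter stood just under the threshold and passed in 6 of 19 alternatives, with adjusted p-values from 0.0217 to 0.181. It was lost without any 1 of 10 libraries, and was kept without C57-IR replicate 1 (adjusted p = 0.0383) or C57-IR replicate 2 (adjusted p = 0.0463).

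Mdm2 (chromosome 10, 117688875 to 117710758, minus strand), itself a p53 target, varied little. It was at 9.86, 10.6 and 10.2 FPKM in C57-non-IR, 10.2, 10.2 and 11.4 in C57-IR, 10.6, 9.94 and 10.5 in Slit2-non-IR and 9.05, 11.6 and 10.5 in Slit2-IR hearts. The groups overlapped in every comparison. The mean effect of IR was 0.02 ± 0.07 (adjusted p = 0.924).

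Cdkn1a (chromosome 17, 29090979 to 29100722), with its p53 response element, was higher on average after IR but varied widely. It was at 18.5, 31.6 and 16.2 FPKM in C57-non-IR and at 18.5, 79.2 and 70.9 in C57-IR hearts, so that C57-IR replicate 1 lay among the controls. In Slit2-Tg hearts the levels were 6.31, 25.3 and 15.2 without ischemia and 27.0, 52.6 and 45.03 after IR, with no overlap. The differences were 1.12 ± 0.57 (adjusted p = 0.633) and 1.49 ± 0.57 (adjusted p = 0.330), and 1.31 ± 0.40 over both genotypes (adjusted p = 0.115, unadjusted p = 0.00762). Without C57-IR replicate 1 the mean effect was 1.63 (adjusted p = 0.0164). A transcript annotated on the other strand overlaps the gene.

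Btg2 stood far above Btg1 in level, and Btg1 alone passed the test. Btg2 (chromosome 1, 134075170 to 134079120, minus strand) was the most highly expressed of the 10 and held 95.4% to 96.2% of the summed BTG1 and BTG2 FPKM on average in each group. It was at 117, 187 and 175 FPKM in C57-non-IR, 239, 544 and 255 in C57-IR, 78.2, 238 and 217 in Slit2-non-IR and 251, 483 and 216 in Slit2-IR hearts. The Slit2-Tg groups overlapped, and the C57BL/6J groups did not. Over both genotypes Btg2 was higher by 0.96 ± 0.33 without passing the test (adjusted p = 0.154, unadjusted p = 0.0130). Btg1 (chromosome 10, 96617006 to 96622809) was at 5.92, 6.66 and 5.99 FPKM in C57-non-IR, 9.73, 20.8 and 13.9 in C57-IR, 3.81, 7.88 and 8.20 in Slit2-non-IR and 12.5, 18.9 and 12.1 in Slit2-IR hearts. Every IR library was above every non-IR library, and Btg1 rose by 1.07 ± 0.20 over both genotypes (adjusted p = 0.0161), a call lost with no filter beyond 1 read (adjusted p = 0.0515).

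Both Plk2 and Plk3 were higher after IR. Plk2 (chromosome 13, 110395046 to 110400844) was at 24.8, 22.8 and 18.2 FPKM in C57-non-IR, 32.9, 51.9 and 39.3 in C57-IR, 14.03, 18.5 and 24.5 in Slit2-non-IR and 30.7, 45.8 and 30.1 in Slit2-IR hearts. Plk3 (chromosome 4, 117128655 to 117133963, minus strand) was at 8.44, 5.77 and 5.16 FPKM in C57-non-IR, 10.6, 26.4 and 15.9 in C57-IR, 2.46, 5.65 and 6.31 in Slit2-non-IR and 11.9, 24.8 and 14.2 in Slit2-IR hearts. For both kinases the IR and non-IR libraries did not overlap. The mean effects of IR were 0.87 ± 0.16 for Plk2 (adjusted p = 0.0140) and 1.45 ± 0.26 for Plk3 (adjusted p = 0.0120), and both held in all 18 alternatives. The share of Plk3 in the summed FPKM of the pair was 22.5% ± 2.66 in C57-non-IR and 28.9% ± 4.66 in C57-IR hearts, and 19.6% ± 4.33 in Slit2-non-IR and 31.7% ± 3.56 in Slit2-IR hearts. The C57BL/6J shares overlapped and the Slit2-Tg shares did not. Plk3 overlaps the protein-coding gene Tctex1d4 on the other strand, whose reads cannot be told apart from its own.

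Slit2-Tg and C57BL/6J hearts were then compared within each condition. Without ischemia, no member passed the adjusted threshold (0.0394% of tested genes did) and none the unadjusted one (3.19%), and the groups overlapped for all 10 (9.2% of tested genes had groups that did not overlap). The differences lay between -0.60 ± 0.57 for Cdkn1a and 0.03 ± 0.29 for Btg1, and 7 of 10 were below 0. After IR, no member passed the adjusted threshold (0.0459% of tested genes did). Trp53 alone passed the unadjusted one (3.16%) and alone had groups that did not overlap (6.47%), at 3.73 ± 0.464 FPKM (SD, n = 3) in Slit2-IR against 2.60 ± 0.143 in C57-IR hearts. This difference was 0.39 ± 0.11 on the log2 scale, with an unadjusted p of 0.00466 and an adjusted p of 0.9996, or 0.645 with the replicate block. For the other 9 genes the differences after IR lay between -0.23 ± 0.57 for Cdkn1a and 0.27 ± 0.50 for Gadd45b. For Gadd45g the difference was 0.05 ± 0.40, and SEs of this size leave room for sizeable differences in either direction.

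The interaction of Slit2 and IR compares the IR effect of the 2 genotypes directly. By limma no tested gene passed its adjusted threshold (0.0%), and 1 member, Trp53, passed the unadjusted one (1.86% of tested genes). The IR effect on Trp53 was larger in Slit2-Tg hearts by 0.61 ± 0.16 (unadjusted p = 0.00230, adjusted p = 0.9998), a difference between 0.53 and 0.82 in the 18 alternatives. The interaction was 0.13 ± 0.56 for Gadd45g, 0.58 ± 0.71 for Gadd45b, 0.31 ± 0.34 for Gadd45a and 0.38 ± 0.52 for Plk3. The comparison of IR within Slit2-Tg hearts and that of genotypes after IR share the Slit2-IR libraries with each other and with the interaction.

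**Figure D4:**
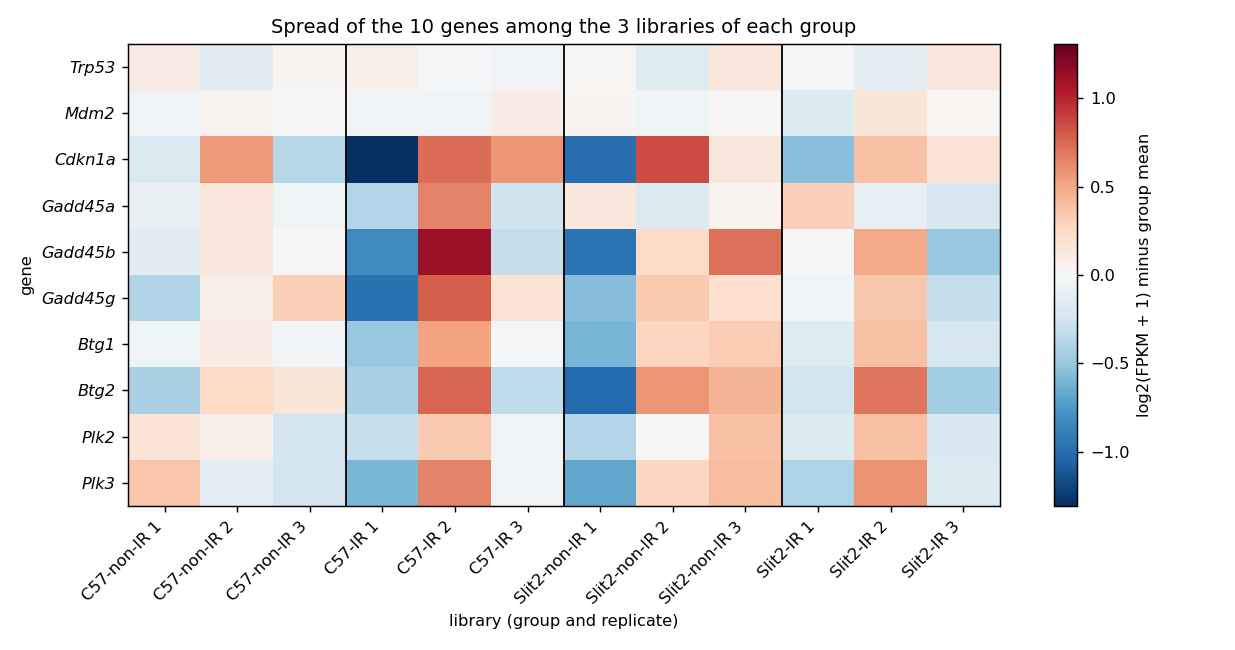
Deviation of each library from the mean of its group, in log2(FPKM + 1), for each of the 10 genes (red above and blue below the group mean). Replicate 2 was the highest of the C57-IR and of the Slit2-IR libraries for 8 genes each, and C57-IR replicate 1 the lowest for 8.

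The order of the 3 libraries was shared by most of the genes in C57-IR hearts. In C57-IR hearts, replicate 2 was the highest for 8 of 10 genes and replicate 1 the lowest for the same 8, Cdkn1a, the 3 GADD45 genes, Btg1, Btg2, Plk2 and Plk3. Among all tested genes, replicate 2 was the highest of its group for 31.7% and replicate 1 the lowest for 39.8%. In Slit2-IR hearts replicate 2 was the highest for 8 genes (31.8% of tested genes), and replicate 3 the lowest for 6 and replicate 1 for 3. In Slit2-non-IR hearts replicate 1 was the lowest for 7 (38% of tested genes), with no library the highest for more than 5. In C57-non-IR hearts replicate 1 was the lowest for 6 genes (41.7% of tested genes) and the highest for 3. Trp53 went its own way and was lowest in Slit2-IR replicate 2. The median deviation of the 10 genes from the group mean was 0.65 in C57-IR replicate 2 and -0.46 in C57-IR replicate 1, against 0.0027 and -0.0027 for the median of all tested genes.

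Markers of the cell types a heart sample can hold were summed for each library. The 8 ventricular cardiomyocyte markers summed to 15030 to 23000 FPKM in the 12 libraries, against 218 to 344 FPKM for smooth muscle and pericytes outside 1 Slit2-IR library at 162. Replicate 1 of each group had the highest ventricular sum of its group and the lowest sums of the fibroblast, smooth muscle and macrophage markers. In C57-IR replicate 1, where 8 of the 10 genes were lowest, the endothelial sum was 258 FPKM against 368 and 412 in the other C57-IR libraries, and the macrophage sum 142 against 280 and 317. Slit2-IR replicate 1, where only 3 of the 10 genes were lowest, had similarly low sums. Its endothelial sum was 259 FPKM against 390 and 394 in the other Slit2-IR libraries, and its macrophage sum 169 against 233 and 225. In bulk tissue, fewer cells of a type and less RNA per cell cannot be told apart. The 9 atrial markers summed to 30.9 to 122 FPKM without ischemia, 75.3 to 251 in 5 of the IR libraries and 1785 in Slit2-IR replicate 1. Without that library, 5 of the 10 genes passed in the mean effect of IR, with Gadd45a lost, and none passed within Slit2-Tg hearts. The same 5 remained without C57-non-IR replicate 1 or 3 or Slit2-non-IR replicate 2. Within Slit2-Tg hearts none passed either without C57-non-IR replicate 2 or 3, any 1 Slit2-non-IR library or Slit2-IR replicate 2. Markers of blood cells were low. The neutrophil sum was at most 2.07 FPKM, with Retnlg, Cxcr2, Mmp8 and Ly6g at 3 reads or fewer in every library, and the lymphocyte sum at most 0.544, with Ncr1, Cd3e and Ms4a1 as low. The red blood cell sum was 4.53 to 49.0 FPKM without ischemia and 1.48 to 12.9 after IR. Adipose markers summed to 0.113 to 1.44 FPKM in C57-non-IR hearts, and to 0.222, 19.2 and 21.5 in C57-IR replicates 1, 2 and 3, so that they too were lowest in C57-IR replicate 1, and to 0.976 to 13.3 in the Slit2-Tg hearts. Lung and airway markers were at 0.277 FPKM in C57-IR replicate 1 and at 9.44 and 11.1 in replicates 2 and 3, and between 0.0821 and 12.2 over all libraries, and skeletal muscle markers (Acta1, also a heart gene, the highest) 62.9 to 471. The part of cell makeup in the differences of the 10 genes was not tested.

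Genes related to the 10 by function were read from lists. Of 19 tested p53 regulators, such as Mdm4, Atm and Chek2, none passed by limma in the mean effect of IR. At the unadjusted threshold 3 passed, all higher, against 7.93% of all tested genes. Sirt1, a deacetylase of p53, had the smallest p and was higher by 0.54 ± 0.16 (adjusted p = 0.0937). Of 32 tested p53 targets other than the 10 genes, 3 passed the adjusted threshold, all of them higher, against 2.34% of all tested genes. A fold change above 0 was seen for 16 of 32, with a median of -0.01. At the unadjusted threshold 5 were higher, against 7.93% of all tested genes, and 2 lower. Tested within 1 genotype, Pmaip1 passed in C57BL/6J hearts (0.407% of all tested genes were higher by that test), and Pmaip1 and Gdf15 in Slit2-Tg hearts (0.446%). Pmaip1, which encodes the BH3-only protein NOXA, rose by 0.95 ± 0.12 (adjusted p = 0.00199) from means of 0.268 and 0.309 FPKM to 1.53 and 1.54. Tnfrsf10b, a death receptor for TRAIL, rose by 1.37 ± 0.20 (adjusted p = 0.00419). Gdf15, a stress-induced cytokine of the TGF-beta family, rose by 1.57 ± 0.24 (adjusted p = 0.00523), from 1.46 ± 0.203 to 5.76 ± 3.38 FPKM in C57BL/6J and from 1.26 ± 0.171 to 7.22 ± 1.55 in Slit2-Tg hearts. The other 29 tested targets, Bax, Ccng1, Zmat3 and Sesn1 among those listed, did not pass.

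Few genes that act with the 10 passed the test. Of 18 tested GADD45 partners and p38 or JNK kinases none passed by limma, and 2 were higher at the unadjusted threshold, against 7.93% of all tested genes. Pcna, the sliding clamp that GADD45 proteins bind, had the smallest p, at 0.56 ± 0.16 (adjusted p = 0.0950). Among 15 BTG, TOB and CCR4-NOT genes, 1 passed, against 2.34% of all tested genes that were higher by that test. Btg3 rose by 0.58 ± 0.06 (adjusted p = 0.00151), from 6.24 ± 0.338 to 9.81 ± 1.17 FPKM in C57BL/6J and from 5.78 ± 0.223 to 9.11 ± 0.0613 in Slit2-Tg hearts. By limma none of the 3 other polo-like kinases, of the 6 other CDK inhibitors or of the 17 tested proliferation genes passed. At the unadjusted threshold 0, 1 and 1 of them were higher, against 7.93% of all tested genes. Plk4 was at -0.03 ± 0.03, the CDK4 and CDK6 inhibitor Cdkn2b at 0.20 ± 0.09 and the replication gene Mcm3 at 0.30 ± 0.10.

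Immediate-early genes, which are transcribed within minutes of a stimulus without new protein, showed the same direction as the GADD45 genes. All 24 had a fold change above 0, with a median of 1.23 on the log2 scale, and 14 passed the adjusted threshold, against 2.34% of all tested genes. Within 1 genotype 5 passed in C57BL/6J hearts (0.407% of all tested genes were higher by that test) and 6 in Slit2-Tg hearts (0.446%). Nr4a3, an orphan nuclear receptor, rose by 3.72 ± 0.25 (adjusted p = 5.7e-05), from 0.828 ± 0.174 to 22.8 ± 12.9 FPKM in C57BL/6J hearts. Atf3, which encodes a stress-inducible bZIP factor, rose by 2.55 ± 0.26 (adjusted p = 0.000843), Fosl2 of the AP-1 family by 2.08 ± 0.19 (adjusted p = 0.000499) and the nuclear receptor Nr4a2 by 1.99 ± 0.22 (adjusted p = 0.00151). No gene of these lists passed in a comparison of genotypes.

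**Figure D5:**
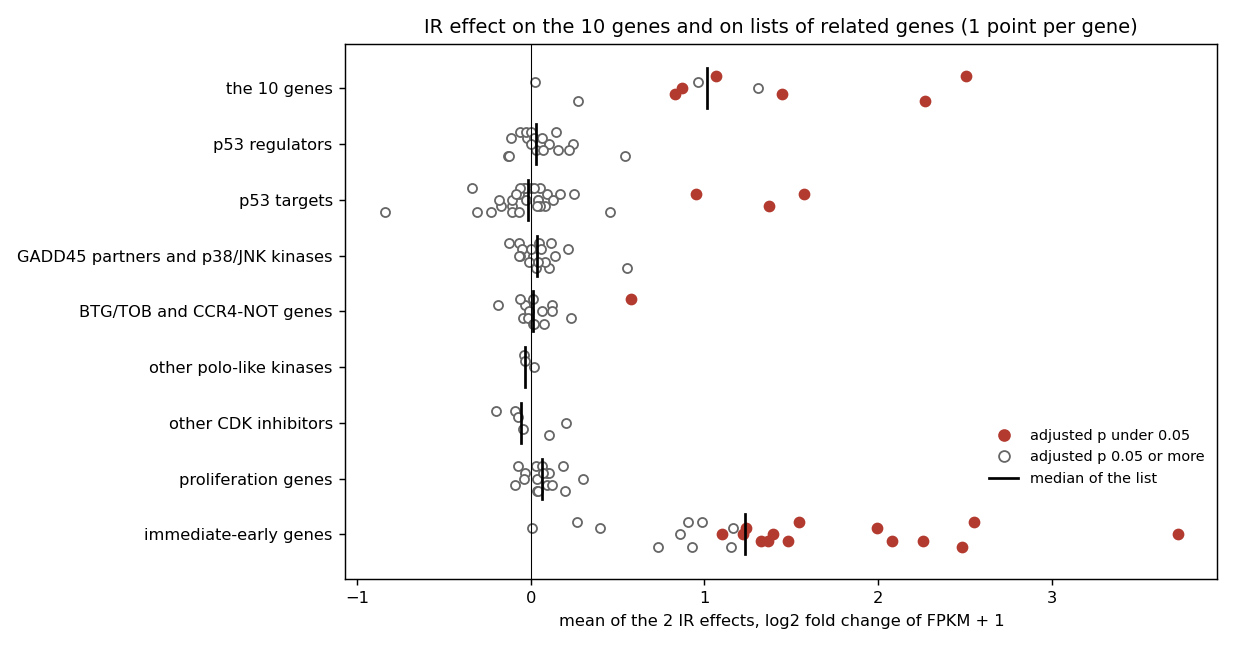
Mean of the 2 IR effects, as log2 fold change of FPKM + 1, for the 10 genes and for the tested genes of 8 related lists, with 1 point per gene and the median of each list as a line. The medians of the 10 genes and of the immediate-early genes were 1.01 and 1.23, those of the other 7 lists lay between -0.06 and 0.07.

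For the 6 genes that passed, the tested genes whose log2 values rose and fell most alike over the 12 libraries, whatever their level, were named by Pearson's r. The libraries share 4 groups, so these values describe the IR effect and the spread within groups together. Gadd45g was closest to Plekho2 (r = 0.988), Rnd1 and Bhlhe40, and Gadd45b to the matrix protease Adamts1 (r = 0.990), Maff and Cyr61. Btg1 was closest to Ppp1r15a (r = 0.992), Cyr61 and Cd83. Plk2 was closest to Plk3 (r = 0.976), ahead of Procr and Irf1, and Plk3 to Wsb1 (r = 0.982), Sema4c and Gprc5a. Gadd45a was closest to Ube2s (r = 0.968) and Rela. After the group means were subtracted, r was between 0.80 and 0.98 for these pairs. The pairs had been chosen by r over the same 12 libraries, so this second r is not independent of the choice.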

How the data were processed

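Total RNA of 12 hearts was sequenced by the authors as paired-end reads. The deposited values are FPKM per gene and library. The submitters' processing notes name HISAT2 and mm10, and the counting tool, annotation release and use of strand are not given in the sources used here. FPKM times gene length was a whole multiple of 1 step per library for 100% of values (within 0.1 read), so reads could be recovered. There were 16601154 to 24841291 reads on genes per library, of which 8778 to 55169 fell on the 10 genes, and 19.7% to 26.0% of reads were mitochondrial. There were 0 unused columns.

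The 10 genes, the related lists and the markers were chosen with earlier results of these data known. Related genes were named if they passed the adjusted threshold (at most 4 of a list, by p), otherwise the 1 of smallest p. For each of the 10 genes called in the mean effect of IR, the 3 genes of highest r were named, apart from 1 gene that is not reported here. Genes that in 3 or more libraries reached the equivalent of 10 reads at median depth, and had 15 reads in all (15240), were tested with limma's two-sided test, moderated with a trend of the variance, on log2(FPKM + 1), 4 groups fitted together, without covariates. P-values were adjusted by Benjamini-Hochberg over all tested genes, with a threshold of 0.05. On this scale changes of low genes are understated. An exact test of 3 against 3 values cannot go below 0.1, and p-values measure the spread between these samples.

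Deviations from the group mean were positively correlated between same-numbered libraries in all 3 pairs of every comparison. The correlations were 0.143 to 0.295 for Slit2-IR with Slit2-non-IR and 0.154 to 0.362 for Slit2-IR with C57-IR hearts. They were 0.0833 to 0.295 for C57-IR with C57-non-IR and 0.0377 to 0.324 for Slit2-non-IR with C57-non-IR hearts. No label pairs the libraries, so the pairing rests on these correlations alone, which come from the same data. The block was fitted on all 12 libraries, with the replicate effects shared by all 4 groups. Alternatives were a pseudocount of 0.1, no filter beyond 1 read (28242 genes), 10 reads in every library (13189 genes), equal non-mitochondrial totals, a fit restricted to the libraries of a comparison, the replicate block, limma-voom on recovered reads, and leaving out each library. The fits were run in limma 3.58.1 under R 4.3.3, the tables were made with pandas 2.3.3 under Python 3.11.15, and the plots with matplotlib 3.10.9.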

Additional observations from a re-analysis of the deposited data

How the results depend on the processing

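In C57BL/6J hearts, 1 of the 10 genes passed for IR. The count was 0 with no filter beyond 1 read and in a fit of only the libraries compared, 2 with the replicate block, and between 0 and 2 with 1 library left out. In Slit2-Tg hearts, where 2 passed, it was 0 with no filter, 1 with equal non-mitochondrial totals and with only the libraries compared, 5 with the replicate block, and between 0 and 5 with 1 library left out (5 without C57-IR replicate 2). Over both genotypes, where 6 passed, it was 4 with no filter, 9 with the replicate block and between 5 and 7 with 1 library left out (7 without C57-IR replicate 1). The block added Cdkn1a, Btg2 and Trp53 (adjusted p = 0.0106, 0.0256 and 0.0460). The genes called among all those tested moved too, from 532 to 299 with no filter, 773 with the block and 713 without C57-IR replicate 1. No count in the comparisons of genotypes or in the interaction left 0. The unfiltered fit tests more genes. Otherwise the causes were not tested.

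Of 33 values of single genes followed through the alternatives, 4 changed sign, and all of them lay near 0. Mdm2 was at -0.030 in C57BL/6J hearts and at -0.060 over both genotypes with equal non-mitochondrial totals. With 1 library left out, Mdm2 lay between -0.00091 and 0.074 in C57BL/6J hearts, between -0.079 and 0.086 in Slit2-Tg hearts and between -0.015 and 0.067 over both, and Trp53 between -0.10 and 0.019 in C57BL/6J hearts. With 3 libraries in a group, the SE was between 0.09 and 0.57 for a comparison within 1 genotype or condition, and differences of several SEs could go uncalled. Gadd45b, for example, did not pass at 1.98 ± 0.50 in C57BL/6J hearts or at 2.56 ± 0.50 in Slit2-Tg hearts.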
